A study of Homo sapiens with 6 samples.

Results

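The genes described here belong to the integrated stress response and to the amino acid supply that it controls. The set holds 33 genes given by symbol: kinases and phosphatase subunits that act on the initiation factor eIF2 alpha, ATF transcription factors and their feedback regulators, target genes of ATF4, and amino acid transporters. All 33 were among the 23368 symbols of the count table, and 31 had enough reads to be tested. Expression was measured by RNA sequencing of total RNA from HCT116, an established human colon cancer line. One group had received an siRNA against ADNP, a zinc finger and homeodomain protein bound to chromatin, and the other a control siRNA, with 3 libraries named siADNP and 3 named siControl. The replicates are described as biological, without saying whether they were separate cultures, and each p-value here rests on library-to-library spread that may be partly technical. Time of harvest and number of siRNA sequences are not analysed here.

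Cells that lack amino acids or heme, or that accumulate misfolded proteins, phosphorylate the alpha subunit of eIF2. General translation then slows, while translation of ATF4 mRNA rises, because short upstream reading frames no longer keep ribosomes from its coding frame. ATF4 protein, paired with other basic leucine zipper proteins, activates genes for amino acid import, amino acid synthesis and glutathione turnover, and it also activates its own feedback inhibitors. Much of this control acts on translation, and RNA levels show only its transcriptional part. In bulk libraries, a change in RNA per cell and a change in the share of cells that hold the RNA cannot be told apart.

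Between 7396771 and 10265175 reads per library were assigned to genes. Levels are given as CPM, the read count scaled to a common library size after TMM normalization, and differences as log2 fold changes of siADNP over siControl from edgeR's quasi-likelihood test, with p-values adjusted over all 12489 genes tested. ADNP mRNA was lower in each of the siADNP libraries, at 53.9 ± 6.62 against 164 ± 8.24 CPM (SD, n = 3 each). The epithelial markers EPCAM, KRT8, KRT18 and CDH1 were all expressed, with CDH1 lowest at 58.9 CPM in siControl. Of the colon markers, CDX2 was expressed at a low level (8.49 CPM in siADNP and 7.41 in siControl), KRT20 had 26 and 20 reads, LGALS4 had 1 and 4 reads, and CDX1 and VIL1 had 0. Most of the 15 markers of other cell types had too few reads to test. Tested were 2 of 7 of fibroblasts and smooth muscle, 1 of 5 of blood cells and 0 of 3 of endothelium. ACTA2 and CD68 were called and COL1A1 was not, where 28.3% of all genes were called in either direction. ACTA2, an actin of smooth muscle and myofibroblasts, fell from 7.96 to 3.81 CPM (adjusted p = 0.000127, edgeR). COL1A1, the other tested marker of that list, stood at 8.24 CPM with siADNP and 7.55 with siControl (adjusted p = 0.552, edgeR). DCN and LUM had 0 reads, and the 7 markers of fibroblasts and smooth muscle summed to 11.1 to 14.6 CPM with siADNP and 13.5 to 17.2 with siControl. CD68, a lysosomal protein of macrophages, rose from 7.04 to 9.44 CPM (adjusted p = 0.0366, edgeR). Its call held in 7 of 15 alternatives. It was lost in DESeq2 (0.174), with the GC offset, and without any 1 library other than siControl replicate 1. HBB had 0 reads, and the 5 blood cell markers summed to 9.29 to 10.3 CPM with siADNP and 6.75 to 7.85 with siControl. The 3 endothelial markers stayed at or below 1.01 CPM in sum, with CDH5 at 0. Reads assigned to no gene made up 72.8% to 73.6% of the siADNP libraries and 71.7% to 72.3% of the siControl libraries, without overlap. The part of ACTA2-expressing or CD68-expressing cells and of the unassigned share in the results was not tested.

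One control library stood apart in these genes. Of the 30 genes of the set with a mean of at least 5 CPM, siControl replicate 2 held the highest of the 3 control values in 24, against 33.5% of all 10658 genes above that level. When the 10658 genes were ordered by the excess of siControl replicate 2 over the mean of the other 2 controls, CHAC1 came first with a 2.22-fold excess, DDIT4 stood at rank 3 with 1.77-fold and ATF3 stood at rank 11 with 1.52-fold. ALDH1L2, GDF15 and SESN2, which are other ATF4 targets outside the set, were also among the first 50, at ranks 15, 24 and 50. Over all genes this library was not wider than its partners: the SD of its log2 difference from the other 2 controls was 0.14, as in siControl replicates 1 and 3. On the low side, siControl replicate 3 held the lowest control value in 17 of the 30 genes. Within the siADNP group, replicate 3 was highest in 19 of the 30 genes, against 34.3% of all genes, and replicate 1 lowest in 16. Results that rest on siControl replicate 2 are therefore given with and without it, and the part of this library's culture or handling in those results was not tested. The library was singled out by its high values in these same genes. Leaving it out therefore raises their fold changes and narrows their control spread by construction. Values and p-values without it are descriptive and no separate support for a rise.

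Of the 31 genes tested, 17 rose and 2 fell at an adjusted p under 0.05 (edgeR), and 12 did not pass. Among all genes tested, 14.6% rose and 13.7% fell (28.3% in either direction). The set was chosen with earlier results of these data known, so its shares are descriptive. The median log2 fold change of the 31 was 0.27, with 25 above 0, while the median over all genes was -0.00128. Most steps were small. The 17 rises ranged from 1.12-fold to 1.99-fold with a median of 1.30-fold. All siADNP values lay above all siControl values in 17 genes and below them in 3, where 20.1% and 20.7% of all genes were separated in those directions (40.8% in either). By role, the rises were 9 of 12 transporters, 3 of 6 transcription factors and feedback regulators (ATF4, JDP2 and TRIB3), 3 of 3 stress effectors and 2 of 5 enzymes, and none of the 5 kinases and phosphatase subunits.

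**Figure D1:**
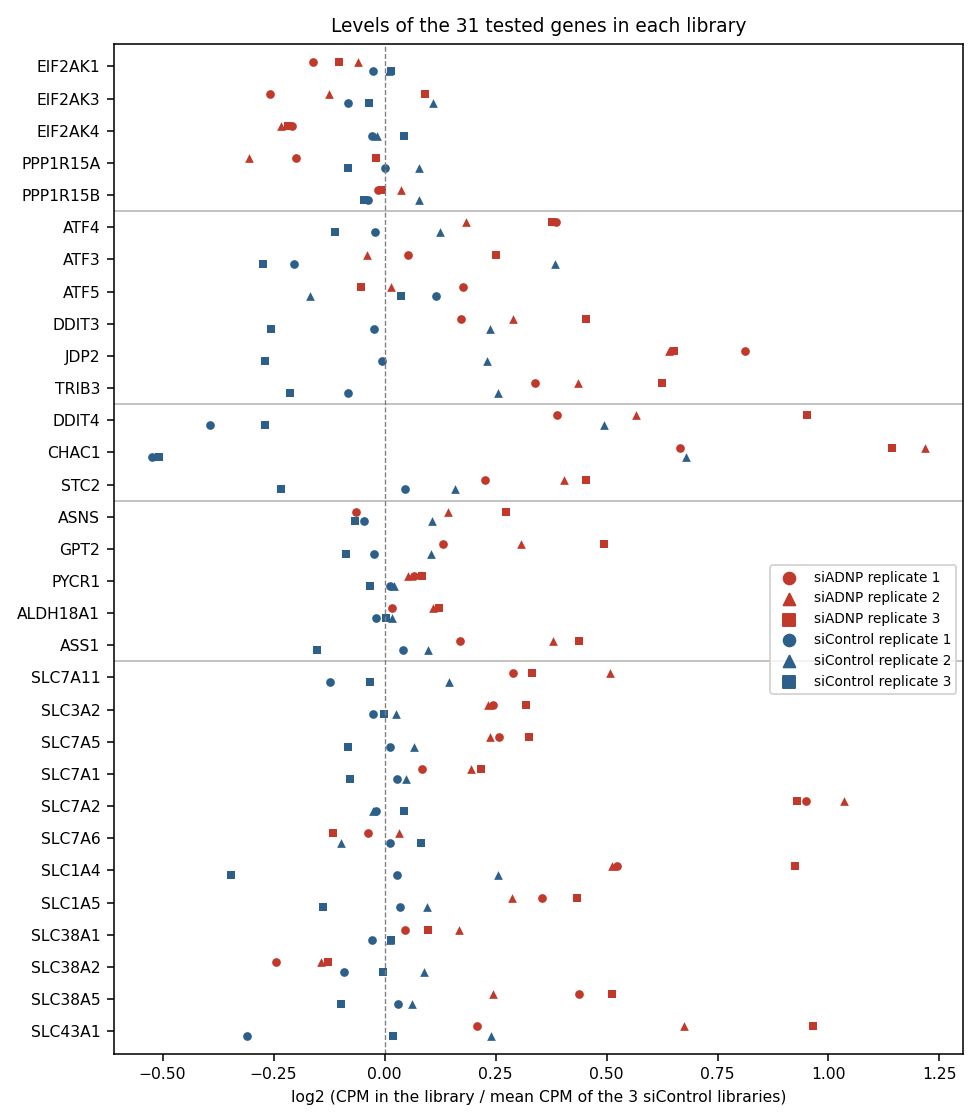
Each tested gene is a line and each library a point, placed at log2 of its CPM over the mean CPM of the 3 siControl libraries (red siADNP, blue siControl; circle, triangle and square are replicates 1, 2 and 3; grey lines part the roles). SLC7A2, JDP2 and SLC1A5 show separated groups, while in CHAC1 and DDIT4 the triangle of siControl replicate 2 lies among the siADNP points.

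Without siControl replicate 2, 20 of the 31 rose and 1 fell, where 11.9% and 10.3% of all genes were called. ATF3, DDIT3 and ASNS joined the rises and SLC38A2 left the falls. DESeq2's Wald test called 14 higher and 2 lower, where 9.11% and 8.88% of all genes were called, and it left out DDIT4, CHAC1 and SLC43A1. GC content moved with the calls. The 17 genes that rose had a median GC content of 57.0% and the other 14 tested genes 47.2%, and over all genes those called higher had 54.5% and those called lower 43.2%. With an offset that removes each library's GC trend, 16 rose and 2 fell, where 12.6% and 14.1% of all genes were called, and the median log2 fold change of the 31 was 0.17 instead of 0.27. SLC7A1 and SLC43A1 lost their calls and SLC38A1 gained one among the rises, and PPP1R15A took the place of SLC38A2 among the falls.

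ATF4 and its dimer partners from the C/EBP family bind a composite element, and its core was searched for in promoters because the set holds ATF4 targets. The motif was TGATGNAA, read on both strands (TTNCATCA on the other), within the 250 bases before each RefSeq start on GRCh38.p14. Of the 27 genes of the set with a promoter entry, 7 (25.9%) held it, against 3.89% of the 27305 genes with an entry and 2.23% of the 8820 tested genes with one. The set was chosen to hold ATF4 targets, so a share above that of all genes is no separate result. Counted per start instead of per gene, it was 7 of 45 (15.6%), against 3.14% of 35116 and, for tested genes, 1.61% of 13042. The 7 stretches are shown so that the letters behind this count can be read, with the motif in capitals, 5′ to 3′ along the gene:
ASNS, chr7:97872458-97872487, minus strand: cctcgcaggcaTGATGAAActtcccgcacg
CHAC1, chr15:40953251-40953280, plus strand: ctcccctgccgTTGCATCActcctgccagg
JDP2, chr14:75427995-75428021, plus strand: atagccggggcTGATGCAAcccgtccc
SLC1A5, chr19:46784893-46784922, minus strand: gaggaagtggcTGATGCAAgctgtccaggg
ATF3, chr1:212565205-212565234, plus strand: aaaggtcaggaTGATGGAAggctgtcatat
FGF21, chr19:48755459-48755488, plus strand: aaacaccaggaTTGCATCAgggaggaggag
PPP1R15B, chr1:204412026-204412055, minus strand: cccgccccggcTGATGCAAcctcacgctgc

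The motif begins 68 bases before the start in ASNS, 209 in CHAC1, 191 in ATF3, 54 in FGF21 and 227 in PPP1R15B. In JDP2 it lies 16 bases before the second of 3 listed starts, and in SLC1A5 97 bases before the one farthest downstream of 3. A match is a description of the letters and not a mapped site. Genes with and without a match were found on both sides of the test. Of the 14 genes that rose and have a promoter entry, 3 hold the motif (CHAC1, JDP2 and SLC1A5). Of the 13 others with an entry, 4 hold it: ASNS, ATF3, PPP1R15B and FGF21, the last of which had too few reads to test.

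None of the 3 kinases of the set, which start the response, rose. EIF2AK4 encodes GCN2, the sensor of uncharged tRNA, and was measured at 132, 130.1 and 132 CPM in the siADNP libraries and at 150.0, 151 and 158 CPM in the siControl libraries. The groups did not overlap, and EIF2AK4 fell by 0.22 ± 0.05 (SE) on the log2 scale (adjusted p = 0.00135, edgeR), a call that held in all 15 alternatives. EIF2AK1, which encodes the heme-regulated kinase HRI, stood at 166, 178 and 173 CPM with siADNP and at 183, 187 and 188 CPM with siControl. Its values were also separated, but the log2 fold change of -0.11 did not pass (adjusted p = 0.112, edgeR). EIF2AK3, which encodes PERK, the kinase of the endoplasmic reticulum, ranged from 17.5 to 22.2 CPM with siADNP and from 19.7 to 22.5 CPM with siControl, so its groups overlapped (log2 fold change -0.10, adjusted p = 0.532, edgeR).

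PPP1R15A and PPP1R15B encode the subunits that bring protein phosphatase 1 to eIF2 alpha and so end the response, the first of them induced by stress. PPP1R15A was read at 31.3, 29.1 and 35.5 CPM with siADNP and at 36.0, 38.0 and 34.0 CPM with siControl, with overlap (log2 fold change -0.18, adjusted p = 0.115, edgeR). It passed as a fall with the GC offset (-0.29, adjusted p = 0.00909) and without siADNP replicate 3 (adjusted p = 0.0441). PPP1R15B lay between 238 and 259 CPM in all 6 libraries. No phosphatase subunit or kinase of the set was called higher in any setting tried.

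ATF4 itself rose at the RNA level. Its values were 638, 554 and 634 CPM with siADNP and 480.3, 532 and 451 CPM with siControl. The groups did not overlap, although siADNP replicate 2 and siControl replicate 2 came close to each other. The log2 fold change was 0.32 ± 0.05 (SE; 1.25-fold; adjusted p = 2.81e-05, edgeR), and 0.23 with the GC offset (adjusted p = 0.00163). Per kilobase of its longest coding transcript, ATF4 was one of the 2 most abundant genes of the set, at 242 CPM per kb in siControl and 301 in siADNP, beside SLC38A2 at 247 and 219.

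Reads that ATF4, ASS1 and SLC7A5 share with their pseudogene copies may be missing from their counts, since reads that mapped to several places were not assigned.

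JDP2, a repressor of AP-1 and ATF target sites, showed the largest rise among the transcription factors. It was measured at 20.2, 17.9 and 18.0 CPM with siADNP and at 11.4, 13.5 and 9.52 CPM with siControl. Every siADNP value exceeded every siControl value, and the log2 fold change was 0.69 ± 0.13 (SE; adjusted p = 5.92e-05, edgeR). TRIB3, a pseudokinase that binds ATF4 and limits its activity, stood at 96.6, 103 and 118 CPM with siADNP against 72.1, 91.1 and 65.8 CPM with siControl. It rose by 0.46 ± 0.08 on the log2 scale (adjusted p = 1.98e-05, edgeR). The gap between the groups was narrow because of siControl replicate 2, and without that library the log2 fold change of TRIB3 was 0.62.

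ATF3, DDIT3 and ATF5 did not pass in edgeR's test on all 6 libraries. ATF3, a stress-induced factor that acts downstream of ATF4, was read at 22.2, 20.8 and 25.5 CPM with siADNP and at 18.6, 27.9 and 17.7 CPM with siControl. The highest of the 6 values was thus siControl replicate 2, and the log2 fold change of 0.07 did not pass (adjusted p = 0.712, edgeR). Without that library it was 0.32 ± 0.12 (SE; adjusted p = 0.0450), and without siControl replicate 1 or 3 it turned to -0.03 or -0.05. DDIT3, which encodes the pro-apoptotic factor CHOP, stood at 17.9, 19.4 and 21.7 CPM with siADNP and at 15.6, 18.7 and 13.3 CPM with siControl (log2 fold change 0.29, adjusted p = 0.0603, edgeR). It passed without siControl replicate 2 (0.44, adjusted p = 0.0128), without siADNP replicate 1 (adjusted p = 0.0469), with upper-quartile scaling (0.0446) and in limma on the deposited log2 values (0.0475). ATF5, whose mRNA is translated under stress like that of ATF4, ranged from 30.9 to 36.2 CPM with siADNP and from 28.5 to 34.8 CPM with siControl. NUPR1, a small chromatin-binding stress protein, had 10 reads in siADNP and 9 in siControl, too few to test.

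**Figure D2:**
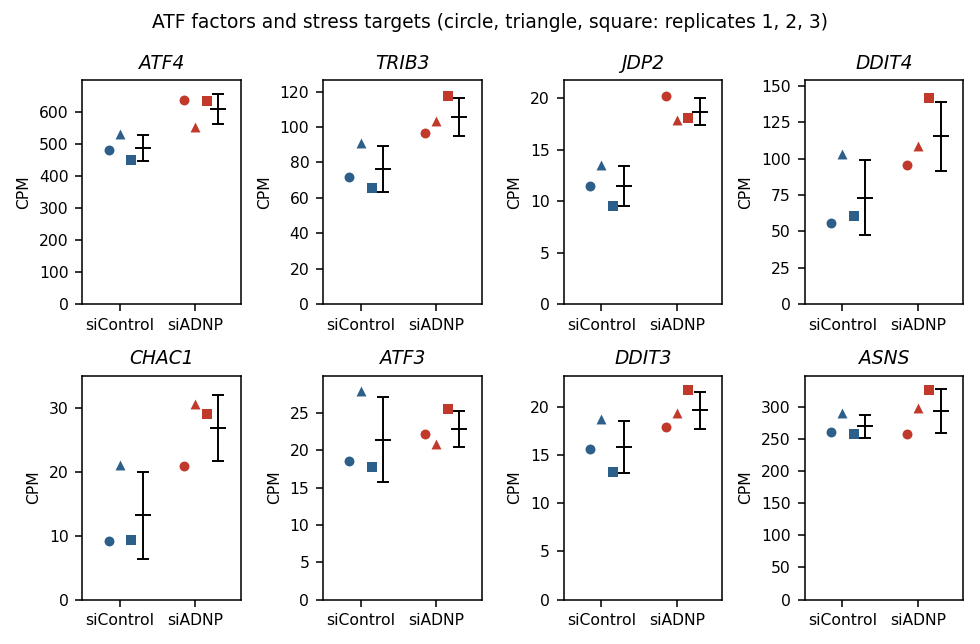
CPM of 8 genes in the siControl (blue) and siADNP (red) libraries, with circle, triangle and square for replicates 1, 2 and 3 and the mean ± SD (n = 3) in black. In CHAC1, DDIT4 and ATF3 the siControl triangle (21.1, 103 and 27.9 CPM) lies far above the other 2 controls, while ATF4 and JDP2 are separated in all libraries.

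All 3 tested stress effectors downstream of ATF4 rose, and 2 of them had a wide spread within the control group. CHAC1 encodes an enzyme that cleaves glutathione and is among the most inducible targets of ATF4. Its values were 20.9, 30.7 and 29.1 CPM with siADNP and 9.19, 21.1 and 9.28 CPM with siControl. The siControl replicate 2 value was thus just above the lowest siADNP value, and the other 2 controls were far below. The log2 fold change was 0.99 ± 0.17 (SE; 1.99-fold; adjusted p = 2.64e-05, edgeR) with all libraries and 1.55 ± 0.15 (2.92-fold; adjusted p = 2.09e-10) without siControl replicate 2. DESeq2's Wald test on all 6 libraries did not call it (adjusted p = 0.0871).

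DDIT4 encodes REDD1, an inhibitor of mTORC1 signalling that several stresses induce. It was measured at 96.1, 109 and 142 CPM with siADNP and at 55.8, 103 and 60.9 CPM with siControl, so that 1 control overlapped the siADNP group. The log2 fold change was 0.64 ± 0.12 (SE; adjusted p = 0.000111, edgeR), and 0.98 ± 0.10 (1.98-fold; adjusted p = 2.78e-10) without siControl replicate 2, while DESeq2 did not call it on all libraries (adjusted p = 0.164). STC2, a secreted glycoprotein induced by endoplasmic reticulum stress, was at 99.9, 113 and 117 CPM with siADNP and at 88.2, 95.3 and 72.7 CPM with siControl. STC2 was separated between the groups and rose with a log2 fold change of 0.36 ± 0.07 (SE; adjusted p = 0.000157, edgeR). FGF21, a hormone that reports stress in liver and muscle, had 1 read in each siADNP library and 0 in each siControl library, which allows no test and no fold.

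**Figure D3:**
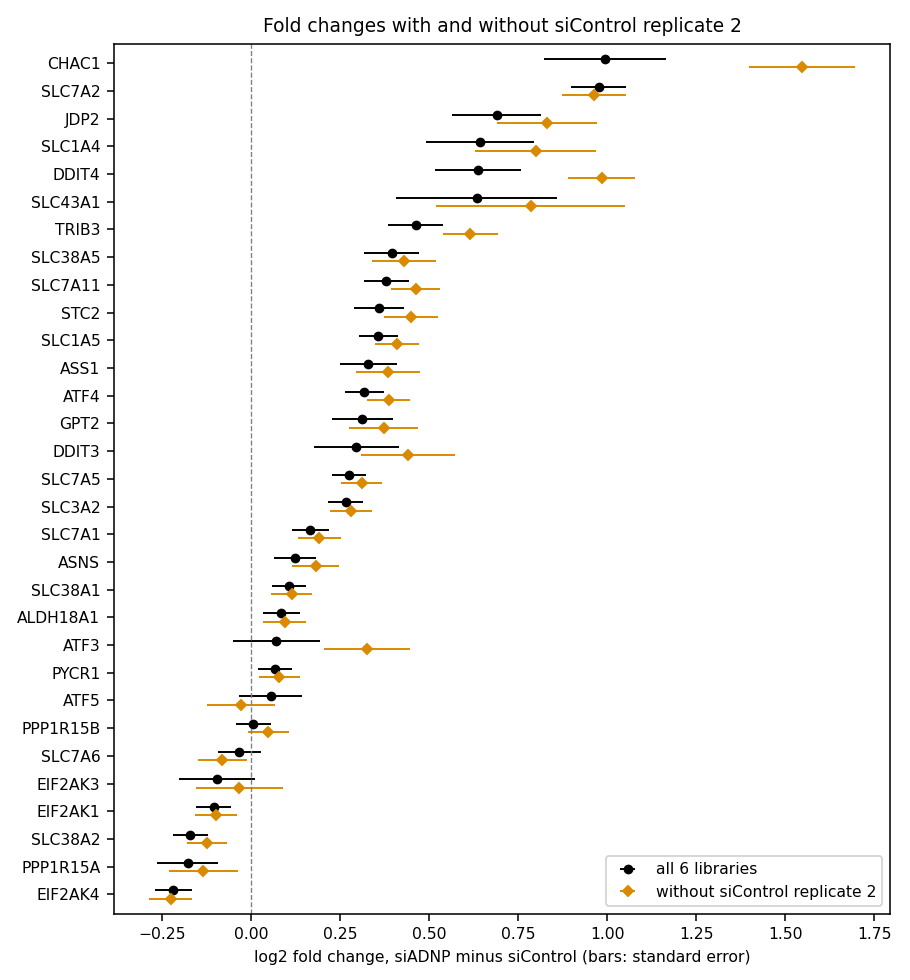
Log2 fold changes of siADNP over siControl with their standard errors (bars), from all 6 libraries (black circles) and without siControl replicate 2 (orange diamonds). CHAC1 moves from 0.99 to 1.55, DDIT4 from 0.64 to 0.98 and ATF3 from 0.07 to 0.32, while SLC7A2 stays near 0.98.

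Of the 5 enzymes of amino acid synthesis, GPT2 and ASS1 rose and 3 did not pass. GPT2, the mitochondrial alanine aminotransferase, stood at 36.6, 41.3 and 47.0 CPM with siADNP and at 32.8, 35.9 and 31.5 CPM with siControl. Its log2 fold change was 0.31 ± 0.09 (SE; adjusted p = 0.00536, edgeR), and it did not pass without siADNP replicate 3 (0.23, adjusted p = 0.0678). ASS1, the argininosuccinate synthase of arginine synthesis, was at 44.9, 52.0 and 54.1 CPM with siADNP against 41.1, 42.8 and 35.9 CPM with siControl, and rose by 0.33 ± 0.08 on the log2 scale (adjusted p = 0.00172, edgeR). For both enzymes the siADNP values lay above all control values.

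ASNS, asparagine synthetase, is a classical ATF4 target, and its promoter match is the one printed first above. It was read at 258, 298 and 326 CPM with siADNP and at 261, 291 and 258 CPM with siControl. The lowest siADNP value fell within the control range, and the log2 fold change of 0.12 ± 0.06 (SE) did not pass (adjusted p = 0.125, edgeR). It passed without siADNP replicate 1 (0.21, adjusted p = 0.00826) and without siControl replicate 2 (0.18, adjusted p = 0.0438). PYCR1 and ALDH18A1, 2 enzymes of proline synthesis, had log2 fold changes of 0.07 and 0.08 that did not pass (adjusted p = 0.309 and 0.235, edgeR). Their siADNP values were nevertheless all above their siControl values, at 249 to 254 against 234 to 243 CPM for PYCR1 and 147 to 158 against 143 to 147 CPM for ALDH18A1, and with the GC offset the sign of PYCR1 turned (-0.07).

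Amino acid transporters gave 9 rises and 1 fall among 12 (75.0% and 8.33%, against 14.6% and 13.7% of all genes). SLC7A2, the cationic amino acid transporter CAT2, had the smallest adjusted p of the whole set. Its values were 52.7, 55.8 and 51.9 CPM with siADNP and 26.9, 26.8 and 28.1 CPM with siControl. The SD was 3.89% of the mean with siADNP and 2.69% with siControl, every siADNP value lay far above every control, and the log2 fold change was 0.98 ± 0.08 (SE; 1.97-fold; adjusted p = 1.92e-12, edgeR). Over the alternatives its adjusted p ranged from 1.45e-29 to 1.75e-09. SLC7A1, the widely expressed cationic transporter CAT1, was at 213, 230.1 and 234 CPM with siADNP and at 205, 208 and 190.4 CPM with siControl. Its rise of 0.17 ± 0.05 on the log2 scale was small (adjusted p = 0.0139, edgeR) and did not pass without siADNP replicate 3 (0.0585), without siControl replicate 3 (0.115) or with the GC offset (0.0830). For each SLC7A2 read there were 4.22 ± 0.244 SLC7A1 reads with siADNP and 7.39 ± 0.534 with siControl (SD, n = 3), without overlap.

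SLC3A2 encodes CD98, the heavy chain that carries several SLC7 light chains to the plasma membrane. It was measured at 239, 237 and 251 CPM with siADNP and at 198, 205 and 201 CPM with siControl, and rose with a log2 fold change of 0.26 ± 0.05 (SE; adjusted p = 7.40e-05, edgeR). SLC7A5, the light chain LAT1 that exchanges glutamine for large neutral amino acids, was at 519, 512 and 544 CPM with siADNP and at 438, 454 and 409.5 CPM with siControl. It rose by 0.27 ± 0.05 on the log2 scale (adjusted p = 3.64e-05, edgeR). The rises of SLC3A2 and SLC7A5 were similar in size. SLC7A5 had 2.17 ± 0.00577 reads per SLC3A2 read with siADNP and 2.15 ± 0.103 with siControl (SD, n = 3), with overlap.

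SLC7A11, the cystine and glutamate exchanger that feeds glutathione synthesis, also pairs with SLC3A2. It stood at 119, 138 and 122 CPM with siADNP against 89.1, 107 and 94.9 CPM with siControl and rose by 0.38 ± 0.06 on the log2 scale (adjusted p = 1.84e-05, edgeR). With the lowest GC content among the genes that rose (35.4%), it gained under the GC offset, to 0.47. SLC7A6, another light chain that exchanges cationic for neutral amino acids, did not pass: it ranged from 85.1 to 94.3 CPM with siADNP and from 86.2 to 97.5 CPM with siControl (log2 fold change -0.03, adjusted p = 0.721, edgeR). SLC7A6 had 0.371 ± 0.0301 reads per SLC3A2 read with siADNP and 0.458 ± 0.0337 with siControl (SD, n = 3), without overlap. SLC43A1, a transporter of large neutral amino acids that needs no heavy chain, was rare, at 3.85, 5.32 and 6.51 CPM against 2.69, 3.93 and 3.38 CPM. Its rise of 0.63 ± 0.23 (adjusted p = 0.0324, edgeR) was lost in DESeq2 (0.149), with the GC offset (0.0796), and without siADNP replicate 2 (0.0806) or 3 (0.182) or siControl replicate 1 (0.151) or 3 (0.0685).

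**Figure D4:**
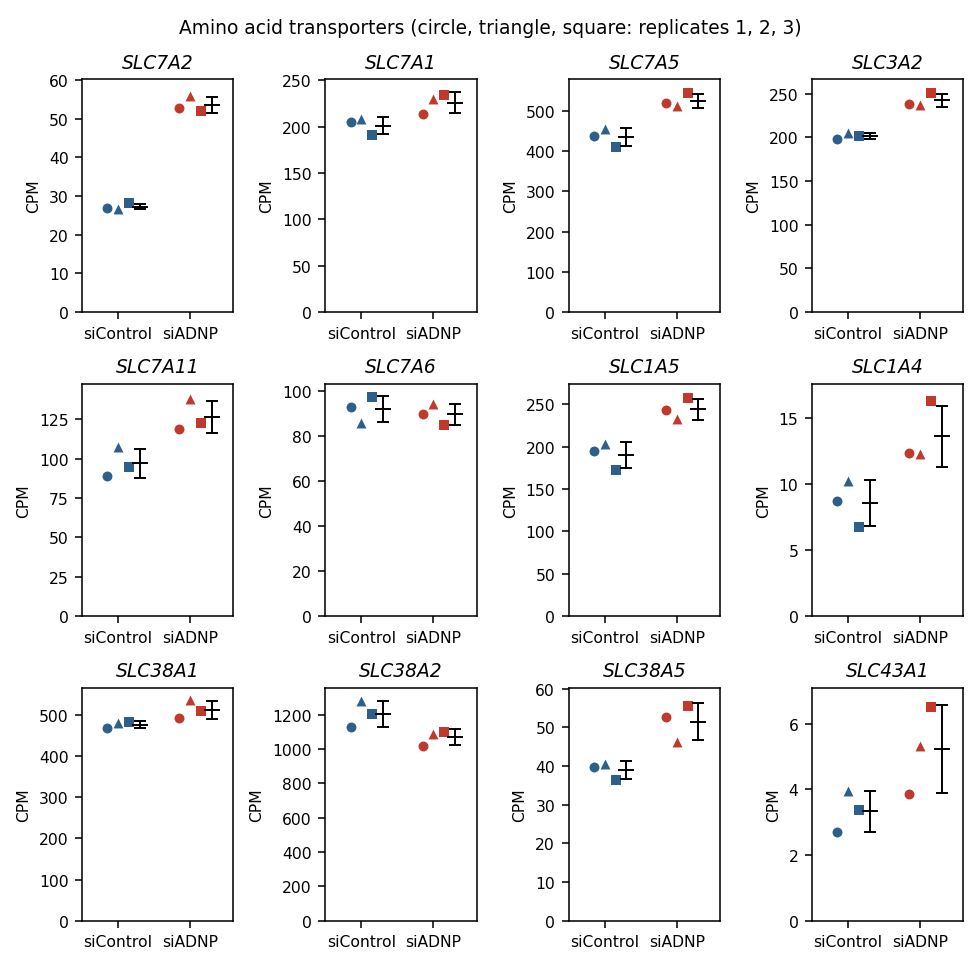
CPM of the 12 amino acid transporters in the siControl (blue) and siADNP (red) libraries, with circle, triangle and square for replicates 1, 2 and 3 and the mean ± SD (n = 3) in black. SLC7A2 is at 53.5 against 27.3 CPM, most others rise by smaller steps, and SLC38A2 is lower with siADNP.

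Both neutral amino acid exchangers of the SLC1 family rose. SLC1A5, known as ASCT2 and a main route of glutamine entry, was measured at 243, 232 and 257 CPM with siADNP and at 195, 203 and 173 CPM with siControl (log2 fold change 0.36 ± 0.05, SE; adjusted p = 4.57e-06, edgeR). SLC1A4, known as ASCT1 and a carrier of serine and alanine, was rarer, at 12.3, 12.2 and 16.3 CPM against 8.74, 10.2 and 6.75 CPM. It rose by 0.64 ± 0.15 (adjusted p = 0.00128, edgeR). In both genes all siADNP libraries exceeded all controls.

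The sodium-coupled transporters of the SLC38 family moved in different directions. SLC38A2, or SNAT2, gave the most reads of the set, with 1017, 1090.3 and 1103 CPM in siADNP and 1131, 1280.3 and 1203 CPM in siControl. It fell by 0.17 ± 0.05 on the log2 scale (adjusted p = 0.00753, edgeR), but the call was lost without siControl replicate 2 (-0.12, adjusted p = 0.110), without siADNP replicate 1 (-0.14, adjusted p = 0.0596) and with the GC offset (-0.09, adjusted p = 0.146). SLC38A1, or SNAT1, ranged from 493 to 536 CPM with siADNP and from 468 to 482 CPM with siControl, separated but below the threshold of the test (log2 fold change 0.11, adjusted p = 0.0898, edgeR). It passed with the GC offset (0.16, adjusted p = 0.00716), with upper-quartile scaling (0.0351) and without siADNP replicate 1 (0.0471). SLC38A5, or SNAT5, was at 52.8, 46.1 and 55.6 CPM with siADNP and at 39.8, 40.6 and 36.4 CPM with siControl, and rose by 0.39 ± 0.08 (adjusted p = 0.000161, edgeR). There were 2.09 ± 0.0663 SLC38A2 reads per SLC38A1 read with siADNP and 2.52 ± 0.123 with siControl (SD, n = 3), without overlap. The read ratios of gene pairs were chosen after the values were seen and carry no test.

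The wider pathway was read in 6 further lists, to be set against the 14.6% of all genes that rose and the 13.7% that fell. These lists too were chosen with earlier results of these data known. Among 35 other ATF4 targets and partners, 32 were tested, 11 rose (34.4%) and 2 fell (6.25%), with a median log2 fold change of 0.12. PHGDH and PSPH, which make serine, rose by 0.75 ± 0.05 and 0.41 ± 0.07 on the log2 scale (adjusted p = 2.38e-13 and 7.98e-06, edgeR). EIF4EBP1, an inhibitor of cap-dependent translation, rose by 0.30, the glycine transporter SLC6A9 by 0.77 and the mitochondrial folate enzyme MTHFD2 by 0.22. GDF15, a stress-induced cytokine on this list, fell by 0.32 (adjusted p = 0.00659, edgeR), from 101, 148 and 102 CPM in siControl to 86.3, 86.8 and 109.9 CPM in siADNP. Its highest value was again siControl replicate 2, and without that library the log2 fold change was -0.11 and did not pass (adjusted p = 0.316, edgeR). GDF15 was not called without siADNP replicate 1 or in DESeq2 (0.368) either. SESN2, an inhibitor of mTORC1, passed as a rise without siControl replicate 2 (0.37, adjusted p = 0.00434, edgeR) and did not pass with all libraries (0.18, adjusted p = 0.152).

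Of 17 genes of the eIF2 complex, its exchange factor eIF2B and regulators of the kinases, 3 rose (17.6%) and 4 fell (23.5%), with a median of -0.07. The share that rose was near the 14.6% of all genes. EIF2S1, which encodes eIF2 alpha itself, the substrate of the kinases, was at 292, 305 and 298 CPM with siADNP and at 388, 385 and 373 CPM with siControl. It fell by 0.36 ± 0.05 on the log2 scale (adjusted p = 2.61e-07, edgeR), and all alternatives kept the call (adjusted p from 9.49e-12 to 0.000137). EIF2B1, the alpha subunit of eIF2B, fell by 0.23 (adjusted p = 0.00476, edgeR). PPP1CC, a catalytic subunit of protein phosphatase 1, rose by 0.25, and EIF2AK2, the RNA-activated kinase PKR, by 0.17 (adjusted p = 0.0338, edgeR). The rise of EIF2AK2 was lost in DESeq2 (0.122), with no filter on low counts and without siADNP replicate 1 or siControl replicate 1 or 3. PPP1CB, another catalytic subunit, fell by 0.14 (adjusted p = 0.0340, edgeR), a call lost in DESeq2, with upper-quartile scaling, the replicate block or the GC offset, and without any 1 library other than siADNP replicate 2.

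Of 37 other amino acid transporters, 23 had too few reads to test, 3 of the 14 tested rose (21.4%, against 14.6% of all genes) and none fell. SLC6A6, a taurine transporter, rose by 0.42 ± 0.07 on the log2 scale (adjusted p = 7.88e-06, edgeR). SLC7A8, the light chain LAT2, rose by 0.57 at a low level of 8.75 against 5.86 CPM, and SLC1A3, a glutamate transporter, by 0.24. The calls of both were lost in DESeq2 (adjusted p = 0.0745 and 0.136) and without siADNP replicate 1 or siControl replicate 1, and that of SLC1A3 also without siADNP replicate 3 or siControl replicate 2. Among 15 tested enzymes of asparagine, alanine, glutamate, proline and arginine metabolism outside the set, 2 rose (13.3%, against 14.6% of all genes) and 4 fell (26.7%, against 13.7%). Ornithine decarboxylase, ODC1, fell by 0.18 on the log2 scale (adjusted p = 0.00778, edgeR), and the aspartate aminotransferases GOT2 and GOT1 by 0.14 and 0.16. Arginase 2, ARG2, rose by 0.46. The call of ODC1 was lost without siADNP replicate 1, and those of GOT2 and GOT1 in DESeq2, with upper-quartile scaling and without siADNP replicate 1 or any 1 control library, that of GOT1 also without siADNP replicate 2.

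Genes that signal amino acid levels to mTORC1 gave 3 rises (15.8%) and 4 falls (21.1%) among 19 tested, against 14.6% and 13.7% of all genes. RRAGD, a Rag GTPase, and SESN1, a sestrin and known p53 target, fell by 0.46 and 0.39 on the log2 scale (adjusted p = 0.000267 and 0.000641, edgeR), and FNIP1, the partner of folliculin, by 0.24. RPTOR and MLST8, components of mTORC1, rose by 0.26 and 0.20, and with the GC offset none of the 3 rises on this list passed (0 of 19, against 3 by edgeR without it and 1 by DESeq2). FNIP1 was not called without siControl replicate 2, with the GC offset or in DESeq2, nor MLST8 in DESeq2 or without siADNP replicate 1 or 2 or siControl replicate 1 or 3. In the IRE1 and ATF6 branches of the unfolded protein response, 10 of 18 rose (55.6%) and 2 fell (11.1%), with a median of 0.16. PDIA4, HYOU1 and MANF, which assist protein folding, rose by 0.38, 0.35 and 0.42, the protease MBTPS1, which activates ATF6, by 0.43, and XBP1, the factor spliced by IRE1, fell by 0.42 (adjusted p = 6.67e-05, edgeR).

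**Figure D5:**
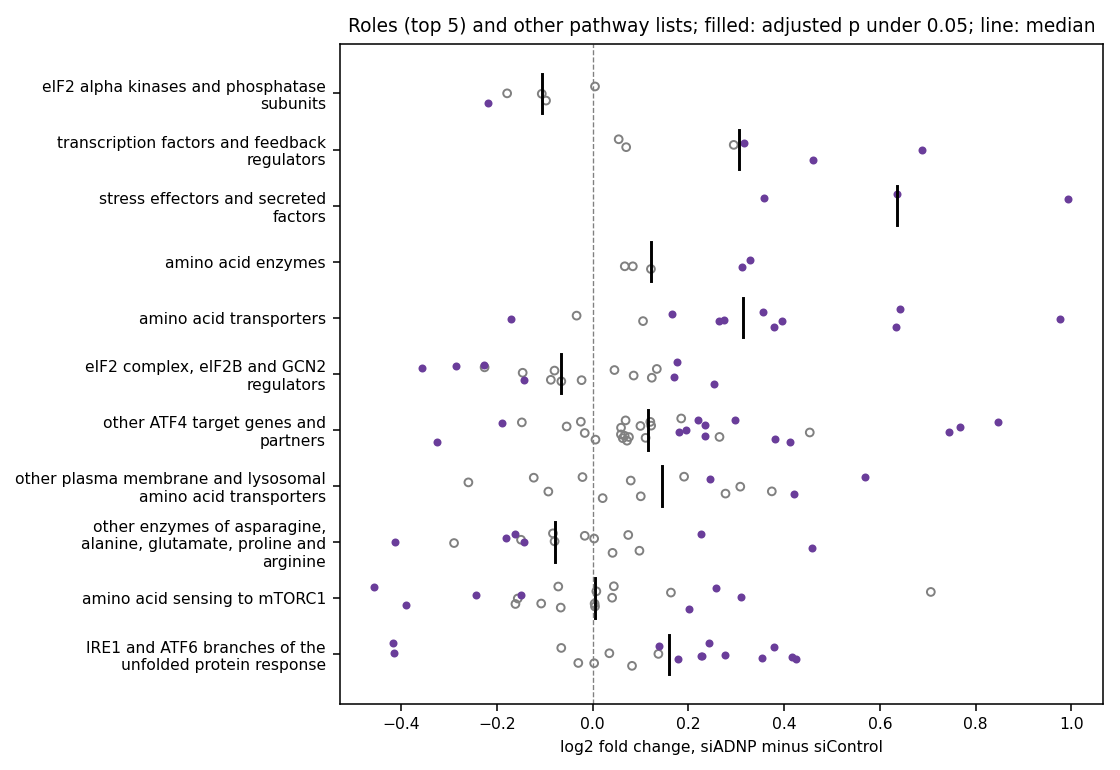
Log2 fold changes of all tested genes in the 5 roles of the set (top) and the 6 further lists (bottom), siADNP minus siControl, with filled points at an adjusted p under 0.05 and a black line at each median (vertical scatter within a list is random). The medians are 0.32 for the transporters of the set and -0.11 for the kinases and phosphatase subunits.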

How the data were processed

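RNA was sequenced from 6 HCT116 samples, 3 treated with siADNP and 3 with siControl. The authors deposited raw read counts by symbol; STAR, HTSeq, DESeq2 and hg19 are named, per the submitters' processing notes. Tool versions, annotation and strand setting are not stated there, and overlapping or antisense genes may share reads. A second deposited table holds log2-like variance-stabilized values by the authors, with a floor of 7.13, and was used only in an alternative test. Lines that name no gene took 71.7% to 73.6% of the reads in the count table, a larger share in each siADNP library than in any siControl library, and were left out.

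The test was the two-sided quasi-likelihood test of edgeR 4.0.16 (R 4.3.3), siADNP over siControl, with TMM scaling and filterByExpr at a minimum count of 10. Benjamini-Hochberg adjustment ran over all 12489 genes that passed, and 0.05 was the limit for a call. The SE is the log2 fold change over the square root of F. Alternatives used DESeq2 1.42.0, limma 3.58.1, other scalings and filters, a GC offset (loess, span 0.4, GC known for 96.9% of genes), the replicate number as a block, and each library left out. GC content and length came from each gene's longest coding GENCODE transcript on GRCh38, not the authors' build. Promoter sequences are from RefSeq on GRCh38.p14. Positions of single libraries used log2(CPM + 0.5). The script was tested on simulated data. Figures were drawn with matplotlib 3.10.9. All genes of the set are accounted for, and up to 5 called genes with the smallest p are named from each further list, except 1 gene that is not reported here; GDF15, SESN2, ALDH1L2, PPP1CB and EIF2AK2 were named after their values were seen where that rule did not name them. The set and the lists were chosen with earlier results of these data known.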

Additional observations from a re-analysis of the deposited data

How the results depend on the processing

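Of 465 values of single genes of the set over 15 alternatives, 418 kept direction and side of the threshold, 18 lost a call, 14 gained one and 15 changed sign. Of the 19 called genes, 13 kept their call in all alternatives: ATF4, JDP2, TRIB3, STC2, ASS1, SLC7A11, SLC3A2, SLC7A5, SLC7A2, SLC1A4, SLC1A5, SLC38A5 and EIF2AK4. Every change of sign was in a gene that was not called. With no filter PPP1R15B was at -0.0035. With the GC offset, ATF5 was at -0.0664 (-0.0660 with the replicate block too) and PYCR1 at -0.0673 (-0.0671 with the block). Leaving out 1 library gave ranges of -0.0185 to 0.0473 for PPP1R15B, -0.0457 to 0.3247 for ATF3, -0.0284 to 0.1166 for ATF5 and -0.0816 to 0.0069 for SLC7A6. Leaving out 1 library gave 14 to 20 rises and 1 to 3 falls in the set, a median log2 fold change of 0.23 to 0.32, and 1470 to 1655 rises and 1307 to 1508 falls among all genes. The falls of the set numbered 1 without siADNP replicate 1 or siControl replicate 2. The median was 0.16 in limma on the shrunken deposited log2 values and 0.17 with the GC offset, with or without the replicate block. DESeq2 called 1106 rises and 1079 falls among all genes.

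In the eIF2 list, no filter and DESeq2 gave 1 rise each, and upper-quartile scaling, DESeq2 and the replicate block 2 falls each. The GC offset gave 4 rises and 6 falls there, and 3 and 5 with the block too. Leaving out 1 library gave 1 to 3 rises and 2 to 4 falls. Other ATF4 targets had 1 fall in DESeq2 and 3 with the GC offset, with or without the block, and 8 to 13 rises and 1 to 2 falls with 1 library left out. Other transporters had 1 rise in DESeq2 and 5 with the GC offset, with or without the block, and 1 to 4 rises and 0 to 1 falls with 1 library left out. Other amino acid enzymes had 1 rise with no filter, in DESeq2 and with the GC offset, with or without the block. Their falls numbered 2 with upper-quartile scaling and in DESeq2, and 6 with the GC offset, with or without the block. With 1 library left out there was 1 rise in each case and 1 to 4 falls. Of the mTORC1 list, 1 rose in DESeq2 and 0 with the GC offset, with or without the block, and 1 to 2 rose and 3 to 4 fell with 1 library left out. The list of the IRE1 and ATF6 branches had 7 rises in DESeq2, 8 with the GC offset and 7 with the block too. With 1 library left out it had 8 to 9 rises, and its falls stayed at 2 in these settings. The causes were not tested.

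Deviations of same-numbered libraries correlated with r = 0.0238, -0.0352 and -0.0290, and 2 of 6 libraries correlated best with their own number. No shared deviation by number was seen. With 3 libraries a group, this cannot tell whether same-numbered samples were prepared together. With the replicate block, 17 genes of the set rose and 2 fell, and 1694 rose and 1542 fell among all genes. At 3 libraries a group and 0.197 to 0.514 CPM, changes in NUPR1 were not detectable.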
